A study of Mus musculus with 18 samples.

Results

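The genes described here act on where a T cell can travel and, for Il7r, on its survival. They are S1pr1, S1pr4 and S1pr5, which encode receptors for the blood lipid sphingosine-1-phosphate, and Cd69, Ccr7, Gpr183 and Il7r. They were listed by name, for their textbook roles in leaving tissue, entering lymph nodes and surviving there, with earlier results of these data known. They are 7 of the 49671 gene models counted, and all 7 were among the 14080 genes that passed the filter on low counts.

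Tumors of B16f10-OVA, a mouse melanoma line that carries ovalbumin, gave CD8+ and CD4+ T cells by flow sorting after 12 days of growth under the skin of mice labelled as strain B6. Mice of all 6 groups carry the floxed miR-155 allele (155 Flox in the labels): the floxed mice have no Cre in their label, and the deficient mice also carry CD4cre, a Cre under the CD4 promoter that acts during thymic development and so reaches both T cell types. The treated mice are deficient mice that received antibodies to PD-1/PD-L1 and CTLA-4 (ICB in the labels) by injection into the abdomen on days 3, 6 and 9 in 250 ul. The labels give 1, 1 and 0.4 mg/ml without saying which antibody or day each belongs to. No treated floxed mice were analysed here. Each cell type has 3 libraries of each of the floxed, deficient and treated mice, 18 libraries in all, and 1 library pools 2 to 3 tumors. No age is given in the sources used here, and they do not say whether libraries share animals.

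Sphingosine-1-phosphate is abundant in blood and lymph and scarce inside tissue. A T cell with S1PR1 on its surface follows that slope out of the tissue. The CD69 protein binds S1PR1 and takes it off the surface, so that CD69-bearing cells, freshly activated or resident in a tissue, stay. CCR7 follows the chemokines CCL19 and CCL21 into lymph nodes, GPR183 follows oxysterols within lymphoid tissue, and the IL-7 receptor alpha chain (Il7r) passes a survival signal to naive and memory cells. In T cells the transcription factor KLF2 drives transcription of S1pr1.

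MiR-155 belongs to the microRNAs of activated lymphocytes. It binds a transcript through its seed, bases 2 to 8. Its mature sequence and the matches to it in the annotated 3′ untranslated regions (3′ UTRs) of the 7 genes are shown to mark which of these transcripts carry a seed match at all. The capitals mark the seed in the microRNA and the letters complementary to it in the 2 transcripts, each written 5′ to 3′.
mmu-miR-155-5p: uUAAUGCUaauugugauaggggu
S1pr1 site: actccccaaaAGCATTActttaactgacag
Il7r site: tgggtgccttAGCATTAaaattctgtttaa
The microRNA sequence is RefSeq's (GRCm38.p6) and the sites come from GENCODE M21 transcripts (GRCm38). The capitals of the S1pr1 site lie at chr3:115710677-115710683, minus strand, and those of the Il7r site at chr15:9506564-9506570, minus strand. The Il7r match is followed by an A, which makes it a site of 8 bases, and the S1pr1 match is not. AGCATTA was not found in the annotated 3′ UTRs of Ccr7, Cd69, Gpr183, S1pr4 and S1pr5. Of 20996 genes with an annotated 3′ UTR, 1839 (8.8%) hold AGCATTA. A match is a description of the sequence, and binding was not measured.

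The libraries held 3.2 to 11.65 M counts (M for mega), so that 3 counts correspond to 0.258 to 1.242 CPM, counts per M on edgeR's TMM scale. This is the floor under which a level cannot be told from none, for counting error only. Mir155hg, the transcript that miR-155 is cut from, lay at 9.08 to 20.5 CPM in floxed and 0.236 to 1.90 in deficient CD8 libraries, and at 4.88 to 8.24 in floxed and 0 to 0.649 in deficient CD4 libraries. The treated libraries had at most 0.524 CPM. The sources do not say which exons are deleted. Cd8a and Cd8b1, the defining genes of CD8 cells, summed to 962 CPM or more in every CD8 library. In CD4 libraries the sum was 32.1 to 238 CPM in floxed, 7.07 to 17.7 in deficient and 12.9 to 46.4 in treated ones. The part of this difference in the CD4 results was not tested. Ribosomal-like models took more than 5% of the counts of 3 libraries, with 25.6% in treated CD8 replicate 2, 11.8% in deficient CD4 replicate 3 and 5.82% in floxed CD8 replicate 1. Marker genes of melanoma cells and macrophages differed between the groups, and their values stand beside the results below.

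In CD8 cells, 5 of the 7 genes rose with miR-155 deletion, namely S1pr1, Il7r, Ccr7, Gpr183 and Cd69, and none fell. Over all genes tested, 9.65% were called higher in the same comparison and 19.3% in either direction. A call means a Benjamini-Hochberg adjusted p under 0.05 in edgeR's quasi-likelihood test, fitted over all 18 libraries. In CD4 cells, 3 of the 7 rose (S1pr1, Gpr183 and Ccr7) and none fell, where 4.61% of genes were called higher and 11.7% in either direction. With antibodies, 4 of the 7 fell in CD8 cells (S1pr1, Ccr7, Il7r and Gpr183) and none rose, against 5.53% of genes called lower and 13.8% in either direction. In CD4 cells none of the 7 was called with antibodies by edgeR, where 0.142% of genes were called in either direction. There 4 of the 7 had an unadjusted p under 0.05 by edgeR, a threshold for which no share of all genes is given. DESeq2 called 2 of the 7, Ccr7 lower and Cd69 higher, among 177 genes in all. The deletion and the antibody comparisons share the untreated deficient libraries, so a gene high in those libraries rises in the first and falls in the second. With libraries scaled to general T cell genes instead, the median of all genes moved to 0.38 for deletion in CD8, -0.22 for deletion in CD4, -0.53 for antibodies in CD8 and -0.34 for antibodies in CD4 cells. Calls over the 14080 genes then numbered 3046, 1553, 3715 and 37 in that order, and were higher in 89%, 22.5%, 6.4% and 10.8% of cases. Of the 7 genes, 6, 4, 6 and 3 were called, all higher with deletion and all lower with antibodies.

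**Figure D1:**
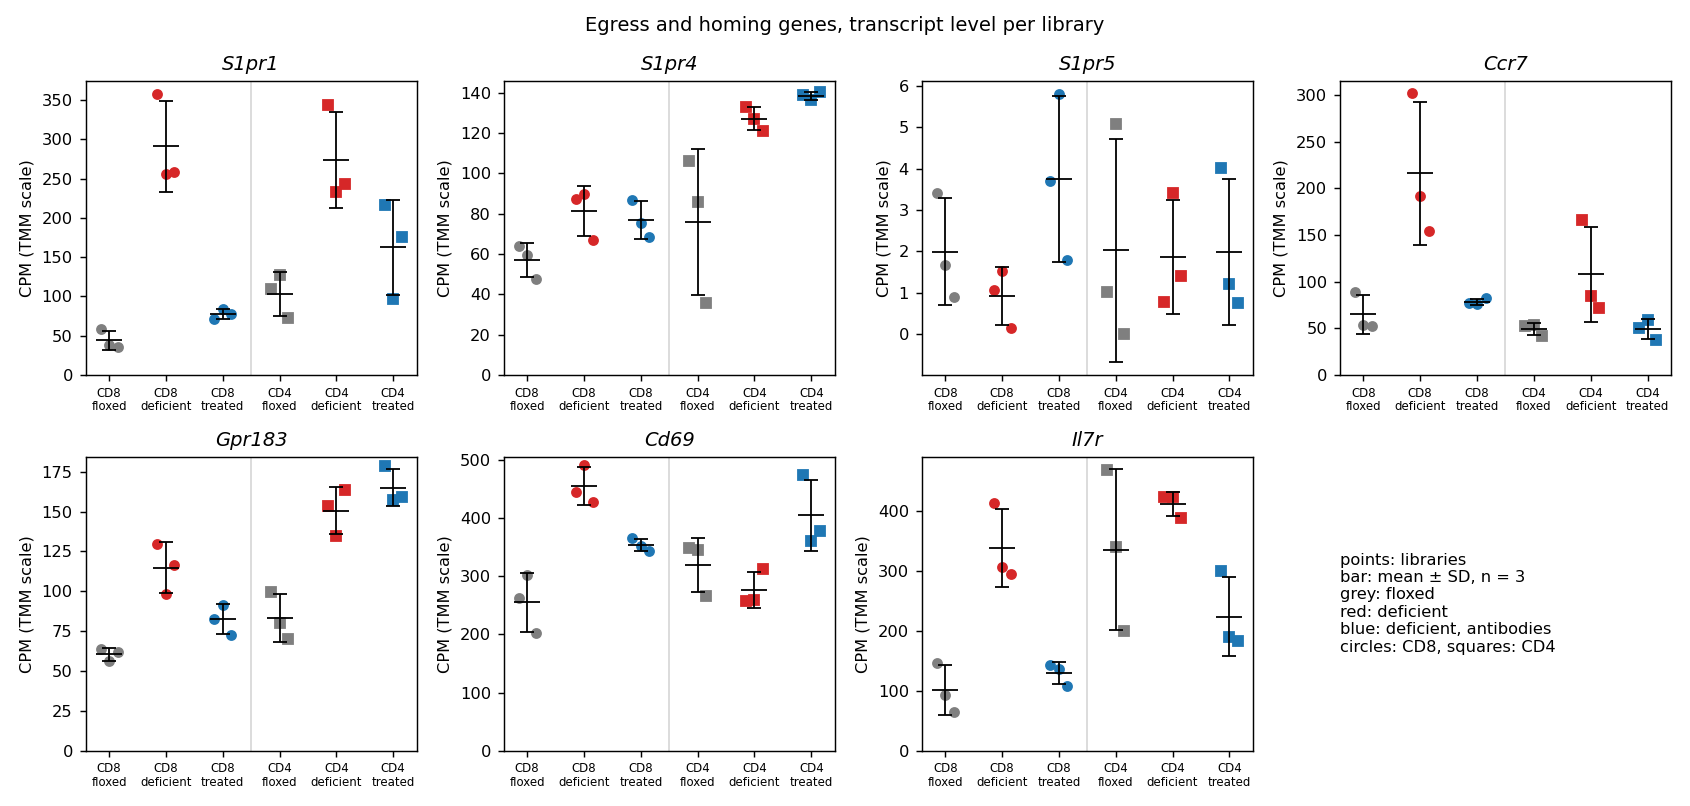
Transcript level of the 7 genes, in CPM on a linear axis, in each of the 18 libraries by group (points), with the mean and SD of 3 libraries (bars). In CD8 cells (circles) the deficient libraries of S1pr1, Ccr7, Il7r, Gpr183 and Cd69 sit above all floxed and all treated libraries, while S1pr5 reaches at most 5.79 CPM.

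S1pr1, the receptor that lets T cells leave tissue, had the largest fold change of the 7 in both deletion comparisons. Its level was 58.2, 38.6 and 35.6 CPM in the floxed CD8 libraries, and 358.1, 256.2 and 259.1 in the deficient CD8 libraries. In the treated CD8 libraries it was 71.2, 84.4 and 77.7 CPM. The deficient libraries lie far above both other groups, and the treated libraries lie above the floxed ones, with no overlap between any pair of groups. The rise with deletion was 6.6-fold (log2 fold change 2.72 ± 0.29 SE, adjusted p = 1.9e-05, edgeR). The fall with antibodies was 3.76-fold (-1.91 ± 0.28, adjusted p = 3.39e-04, edgeR). Treated and floxed CD8 cells differed by 0.81 ± 0.28 on the log2 scale, which was not called by edgeR (adjusted p = 0.103) and was called by DESeq2 (adjusted p = 0.0338).

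In CD4 cells S1pr1 started higher and rose less. Its level was 109.2, 127.8 and 72.9 CPM in the floxed libraries, 344.1, 233.4 and 243.2 in the deficient ones, and 216.0, 97.0 and 175.5 in the treated ones. All 3 deficient libraries lie above all floxed and all treated libraries, and the treated libraries spread over the upper floxed range and beyond it. The rise with deletion was 2.64-fold (1.40 ± 0.28, adjusted p = 0.0039, edgeR). The change with antibodies was -0.74 ± 0.27 and was not called (adjusted p = 0.31, edgeR). The deletion effect was larger in CD8 than in CD4 cells by 1.32 ± 0.39 on the log2 scale (adjusted p = 0.0358, edgeR), a call that was lost in 9 of the 18 fits that each left out 1 library (adjusted p up to 0.095). After deletion the levels of the cell types differed by less than their spread, at 291.1 ± 58.0 CPM in CD8 and 273.6 ± 61.3 CPM in CD4 cells (SD, n = 3). The fitted difference there was 0.09 ± 0.27.

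The other receptors of the family behaved otherwise. S1pr4, found on lymphocytes and myeloid cells, had CD8 means of 57.1 ± 8.4 CPM (floxed), 81.3 ± 12.6 CPM (deficient) and 76.9 ± 9.4 CPM (treated), SD with n = 3 each. The deficient libraries (87.2, 89.9 and 67.0 CPM) do not overlap the floxed ones (63.9, 59.8 and 47.7), but the difference of 0.51 ± 0.25 was not called (adjusted p = 0.167, edgeR). In CD4 cells the 3 floxed libraries spread widely, at 106.0, 85.8 and 35.8 CPM, while the deficient ones lie close together at 132.8, 127.2 and 121.3. The treated CD4 libraries are the highest, at 138.8, 136.4 and 140.5 CPM. The difference between treated and floxed CD4 cells, 0.86 ± 0.25, was called (adjusted p = 0.0292, edgeR), and deletion alone, 0.73 ± 0.25, was not (adjusted p = 0.0637, edgeR). The treated call was lost without any 1 of the 3 treated CD4 libraries (adjusted p up to 0.0785). It was also lost with libraries scaled to general T cell genes (0.406 ± 0.195, adjusted p = 0.102, edgeR). The same held with CD4 cells fitted alone (adjusted p = 0.0777) and without the libraries of high ribosomal-like share (adjusted p = 0.0616), by edgeR. With melanoma and macrophage covariates the estimate turned to -0.55 ± 0.42 (adjusted p = 0.85, edgeR).

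S1pr5, the receptor by which natural killer cells and some effector T cells leave tissue, was the lowest of the 7. Its counts ran from 0 to 46 a library and its group means from 0.917 to 3.76 CPM. The largest group mean was that of treated CD8 cells, at 3.70, 5.79 and 1.78 CPM, against 1.06, 1.53 and 0.159 in deficient CD8 cells. No comparison of S1pr5 was called. Its standard errors ran from 0.94 to 1.38 on the log2 scale, and libraries of 1 group differed widely, with counts of 6, 37 and 0 in floxed CD4 libraries and 46, 4 and 8 in treated CD4 libraries. Gm48303 is annotated on the other strand of S1pr5, and Ubac2 on the other strand of Gpr183. The counts are strand specific, per the file headers.

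**Figure D2:**
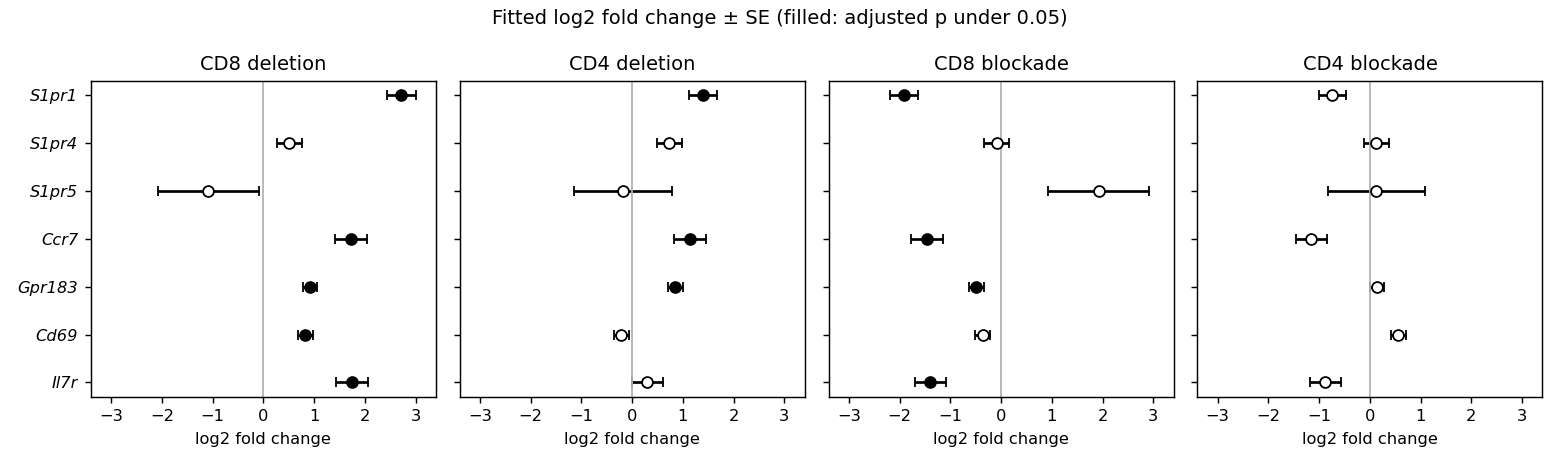
Fitted log2 fold change with its standard error for the 7 genes in the deletion and antibody comparisons of CD8 and CD4 cells (x axis), with filled points for an adjusted p under 0.05. S1pr1 has the largest rise in both deletion panels, and in the panel of CD4 cells with antibodies no point is filled.

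Cd69, whose product removes S1PR1 from the cell surface, rose along with S1pr1 in deficient CD8 cells. It was at 262.0, 303.1 and 202.1 CPM in floxed, 445.7, 491.6 and 427.9 in deficient and 365.3, 353.0 and 344.0 in treated CD8 libraries. The 3 groups do not overlap: deficient is highest, treated lies between, and floxed is lowest. The rise with deletion was 1.78-fold (0.83 ± 0.15, adjusted p = 5.25e-04, edgeR). The change with antibodies, -0.36 ± 0.15, was not called (adjusted p = 0.108, edgeR).

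In CD4 cells Cd69 went another way. It was at 349.7, 344.8 and 266.5 CPM in floxed, 258.0, 258.8 and 312.2 in deficient and 475.4, 360.5 and 378.7 in treated libraries. Floxed and deficient libraries overlap, and all treated libraries lie above both. Deletion changed Cd69 by -0.22 ± 0.15 (adjusted p = 0.404) and antibodies by 0.55 ± 0.15 (adjusted p = 0.153), neither called by edgeR. The deletion effect differed between CD8 and CD4 cells by 1.05 ± 0.21 (adjusted p = 0.00205, edgeR), a call kept in all 18 fits without 1 library. It was lost with melanoma and macrophage covariates (2.06 ± 0.45, adjusted p = 0.0884, edgeR). With endothelial and mature dendritic cell covariates it was lost too (0.88 ± 0.30, adjusted p = 0.0581, edgeR). The antibody effect differed by -0.92 ± 0.21 (adjusted p = 0.0402, edgeR), and that call was lost in 9 of the 18 fits (adjusted p up to 0.105).

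Since CD69 acts on S1PR1, the ratio of the S1pr1 to the Cd69 transcript per kilobase was taken in each library. In CD8 cells it was 0.272 to 0.474 in floxed, 1.11 to 1.72 in deficient and 0.417 to 0.511 in treated libraries. In CD4 cells it was 0.585 to 0.792, 1.665 to 2.85 and 0.575 to 0.991 in the same order. In both cell types the deficient libraries lie above all floxed and treated libraries, so S1pr1 rose relative to Cd69 with deletion. In CD8 cells both transcripts rose, while in CD4 cells Cd69 did not rise (-0.22 ± 0.15). Neither protein was measured. The size of the ratio depends on the length used for Cd69, whose annotated exons add up to 6509 bases while its longest coding transcript has 1687, but the length is the same for every library.

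Ccr7, the receptor for entry to lymph nodes, was at 89.1, 53.6 and 52.5 CPM in floxed, 301.8, 191.4 and 154.7 in deficient and 76.9, 76.2 and 82.1 in treated CD8 libraries. Deficient libraries stand apart from both other groups, which overlap each other. The rise with deletion was 3.32-fold (1.73 ± 0.31, adjusted p = 0.00124, edgeR) and the fall with antibodies 2.75-fold (-1.46 ± 0.31, adjusted p = 0.00544, edgeR). In CD4 cells Ccr7 was at 52.5, 53.3 and 41.8 CPM in floxed, 166.2, 85.0 and 72.1 in deficient and 50.8, 59.0 and 37.7 in treated libraries. The deficient libraries are again above the others, with replicate 1 far above its 2 companions. The CD4 rise of 1.13 ± 0.31 was called (adjusted p = 0.0278, edgeR), but without deficient replicate 1 it was 0.66 ± 0.26 (adjusted p = 0.169), and it was lost also without any 1 of the floxed CD4 libraries (adjusted p up to 0.137). The deletion effects on Ccr7 in CD8 and CD4 cells differed by 0.60 ± 0.43, which was not called (adjusted p = 0.453, edgeR).

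Gpr183, the oxysterol receptor, was called higher with deletion in both cell types. It was at 63.9, 56.0 and 61.8 CPM in floxed, 129.6, 98.2 and 116.4 in deficient and 82.8, 91.5 and 72.8 in treated CD8 libraries. The 3 groups do not overlap and stand in the order floxed, treated, deficient. The rise with deletion was 0.92 ± 0.14 (1.9-fold, adjusted p = 1.36e-04, edgeR). The fall with antibodies was -0.49 ± 0.14 (adjusted p = 0.0259, edgeR), and was lost without any 1 of deficient replicates 1 and 3 and treated replicates 1 and 3 (adjusted p up to 0.156).

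In CD4 cells Gpr183 was at 99.8, 80.0 and 69.9 CPM in floxed, 153.4, 134.5 and 163.7 in deficient and 178.3, 157.2 and 159.4 in treated libraries. Both deficient groups lie above the floxed group, and treated and deficient libraries overlap. The change with antibodies was 0.13 ± 0.14 (adjusted p = 0.758, edgeR). The rise was 0.85 ± 0.14 with deletion (adjusted p = 6.64e-04) and 0.98 ± 0.14 between treated and floxed cells (adjusted p = 1.22e-04), both by edgeR. Both calls were lost with melanoma and macrophage covariates (0.29 ± 0.35, adjusted p = 0.929, and 0.48 ± 0.31, adjusted p = 0.815, by edgeR). The call between treated and floxed cells was also lost with libraries scaled to general T cell genes (0.45 ± 0.18, adjusted p = 0.0522, edgeR). The deletion effects in CD8 and CD4 cells differed by 0.07 ± 0.20 (adjusted p = 0.874, edgeR).

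Il7r, the IL-7 receptor alpha chain, rose in CD8 cells and was already high in CD4 cells. In CD8 cells it was at 146.0, 92.6 and 64.6 CPM in floxed, 412.9, 306.6 and 295.2 in deficient and 142.1, 137.0 and 108.3 in treated libraries. Deficient libraries lie well above the other groups, which overlap. The rise was 3.34-fold (1.74 ± 0.32, adjusted p = 0.00151, edgeR) and the fall with antibodies 2.62-fold (-1.39 ± 0.31, adjusted p = 0.00857, edgeR). In CD4 cells Il7r was at 467.8, 339.9 and 198.8 CPM in floxed, 422.9, 422.8 and 388.8 in deficient and 299.0, 188.9 and 183.2 in treated libraries. The floxed libraries spread widely and overlap both other groups, and all treated libraries lie below all deficient ones. Neither deletion (0.29 ± 0.31, adjusted p = 0.625) nor antibodies (-0.88 ± 0.31, adjusted p = 0.297) gave a call for it in CD4 cells by edgeR. The deletion effect on Il7r was larger in CD8 cells by 1.45 ± 0.44 (adjusted p = 0.0435, edgeR), lost in 12 of the 18 fits without 1 library (adjusted p up to 0.102).

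Treated deficient and untreated floxed cells were compared directly, a comparison in which genotype and antibodies both differ. In CD8 cells none of the 7 genes was called by edgeR, where 5.01% of genes tested were called. Among the 7, 3 had an unadjusted p under 0.05 by edgeR, a threshold for which no share of all genes is given. DESeq2 called 2, S1pr1 and Cd69, both higher in treated cells, among 1385 genes in all. In CD4 cells 2 of the 7 were called, S1pr4 and Gpr183, both higher in treated cells, where 4.08% of genes were called higher and 12.2% in either direction. All treated libraries lay above all floxed ones for 4 of the 7 in CD8 cells (13.6% of genes tested) and 3 of the 7 in CD4 cells (12.3%). With deletion, all deficient libraries lay above all floxed ones for 6 of the 7 in CD8 (17.8% of genes tested) and 4 of the 7 in CD4 cells (13.2%). With antibodies, treated CD8 libraries all lay below deficient ones for 5 of the 7 (22.1% of genes tested) and above for S1pr5, and treated CD4 libraries below for 3 (9.90%) and above for 2 (10.1%).

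The median log2 fold change of the 7 genes with deletion was 0.92 in CD8 and 0.73 in CD4 cells, against -0.01 and 0.01 over all genes tested. With antibodies it was -0.49 in CD8 and 0.12 in CD4 cells, against -0.03 and -0.01. Between the cell types, the deletion effect was larger in CD8 cells for 3 of the 7 (S1pr1, Cd69 and Il7r) and smaller for none, where 6.89% of genes were called larger and 11.6% in either direction. The antibody effect differed for 1 of the 7, Cd69, where 0.227% of genes were called in that direction and 0.803% in either.

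CD8 and CD4 cells were also compared at each condition. In floxed mice 3 of the 7 were called, each lower in CD8 cells, where 39.1% of genes were called in either direction. These were S1pr1 (-1.23 ± 0.28, adjusted p = 0.00238), Gpr183 (-0.46 ± 0.14, adjusted p = 0.0138) and Il7r (-1.73 ± 0.32, adjusted p = 4.84e-04), by edgeR. In deficient mice 2 were called, each higher in CD8 cells, Cd69 (0.72 ± 0.15, adjusted p = 0.00192) and Ccr7 (0.99 ± 0.30, adjusted p = 0.0372), where 15.6% of genes were called in either direction. The Ccr7 libraries of the 2 cell types overlap there, and the call was lost without any 1 of CD8 replicates 1 and 2 and CD4 replicates 2 and 3 (adjusted p up to 0.166). The Gpr183 call in floxed mice was lost without CD8 replicate 2 or CD4 replicate 1 (adjusted p up to 0.105). In treated mice 3 were called, each lower in CD8 cells, where 20.4% of genes were called in either direction. These were S1pr1 (-1.08 ± 0.28, adjusted p = 0.0108), S1pr4 (-0.85 ± 0.25, adjusted p = 0.0209) and Gpr183 (-1.01 ± 0.14, adjusted p = 3.91e-05), by edgeR. The call for S1pr1 was lost without CD8 or CD4 replicate 1 (adjusted p up to 0.0563), and that for S1pr4 without CD8 replicate 2 or 3 (adjusted p up to 0.0853). In a fit with the replicate number as a block, 5 of the 7 were called in treated cells, where 2960 genes were called in all. There Ccr7 was also higher in CD8 cells (0.72 ± 0.21, adjusted p = 0.0221) and Il7r also lower (-0.77 ± 0.17, adjusted p = 0.00322), by edgeR.

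The macrophage sum of floxed libraries was 606 to 1953 CPM in CD8 and 11710 to 25110 CPM in CD4 cells, and that of treated libraries 462 to 714 and 2755 to 4412 CPM. With melanoma and macrophage covariates S1pr1 was called lower in CD8 cells in floxed (-4.16 ± 0.69, adjusted p = 0.0101) and treated mice (-2.77 ± 0.43, adjusted p = 0.00162), by edgeR. Il7r was called lower in floxed mice (-5.19 ± 0.79, adjusted p = 0.00866, edgeR). The calls for Gpr183 in floxed (-1.39 ± 0.55, adjusted p = 0.289) and for Cd69 (0.45 ± 0.17, adjusted p = 0.109) and Ccr7 (0.36 ± 0.29, adjusted p = 0.525) in deficient mice were lost, by edgeR. The macrophage sums of CD8 and CD4 libraries do not overlap in floxed or in treated mice. This fit therefore cannot fully separate cell type from macrophage level, and it does not decide whether those differences lie in the T cells. With endothelial and mature dendritic cell covariates, of the 8 differences called above only that of Ccr7 in deficient mice was still called (2.63 ± 0.49, adjusted p = 0.00305, by edgeR). Among the 8, the sign turned there for S1pr1 (0.95 ± 0.80) and Il7r (0.52 ± 0.96) in floxed and for S1pr1 (0.39 ± 0.57) and S1pr4 (0.19 ± 0.57) in treated mice.

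To compare levels between genes, CPM was divided by the length of a gene's exons in the files (RPKM, per kilobase). In floxed CD8 cells the order was Cd69 (39.3 ± 7.8 RPKM), Ccr7 (32.9 ± 10.5), Il7r (31.5 ± 12.9), S1pr4 (23.9 ± 3.5), Gpr183 (20.6 ± 1.4), S1pr1 (14.5 ± 4.0) and S1pr5 (0.797 ± 0.519), SD with n = 3. Each of these neighbours overlaps the next except S1pr1 and S1pr5. In deficient CD8 cells S1pr1 moved from the sixth place to the third, at 95.57 ± 19.04 RPKM, within the spread of Ccr7 (109.2 ± 38.7) and Il7r (105.4 ± 20.2) and above Cd69 (69.9 ± 5.1). In treated CD8 cells it was again the sixth, at 25.5 ± 2.2 RPKM. In CD4 cells Il7r was the first in all 3 groups by this length, at 104.6 ± 41.9, 128.3 ± 6.1 and 69.7 ± 20.4 RPKM in floxed, deficient and treated cells. S1pr1 was the third, the second and the fifth in the same groups, and S1pr5 the last in all 6 groups. By the length of the longest coding transcript Cd69 would lead in all 6 groups, for example at 269.8 ± 19.5 per kilobase in deficient CD8 cells and 163.8 ± 18.4 in deficient CD4 cells, where Il7r would stand at 116.3 ± 5.6, so its place depends on the gene model.

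Of the genes tied to these receptors, Klf2 was looked at first, and then the lists of related genes. The counts of the lists stand against 19.3% of all genes tested called in either direction with deletion and 13.8% with antibodies in CD8 cells, and 11.7% and 0.142% in CD4 cells. Macrophage markers fell with deletion in CD4 cells (sums of 11710 to 25110 CPM in floxed, 2997 to 4475 in deficient libraries). With melanoma and macrophage covariates only 2 genes in all were called there. The part of macrophage transcripts in the CD4 calls of the lists was not tested further. Klf2 was at 71.0, 40.5 and 51.8 CPM in floxed, 203.0, 155.3 and 146.3 in deficient and 45.6, 39.7 and 52.7 in treated CD8 libraries. It rose with deletion (1.63 ± 0.24, adjusted p = 1.29e-04, edgeR) and fell with antibodies (-1.86 ± 0.24, adjusted p = 7.14e-05, edgeR). Like S1pr1, Klf2 is high in the 3 deficient libraries only among CD8 libraries.

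In CD4 cells S1pr1 and Klf2 parted. Klf2 was at 148.9, 114.2 and 241.1 CPM in floxed, 157.8, 126.4 and 138.3 in deficient and 91.3, 79.8 and 74.7 in treated libraries, so that floxed and deficient libraries overlap. Its deletion effect there, -0.25 ± 0.23, was not called (adjusted p = 0.568) and differed from that in CD8 cells by 1.88 ± 0.33 (adjusted p = 0.00104), by edgeR. Floxed CD4 replicate 3, the highest Klf2 library, had the lowest S1pr1, S1pr4, Ccr7, Gpr183, Cd69 and Il7r of its group, the highest macrophage marker sum (25110 CPM) and the lowest sum of general T cell genes (2694 CPM) of its group.

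**Figure D3:**
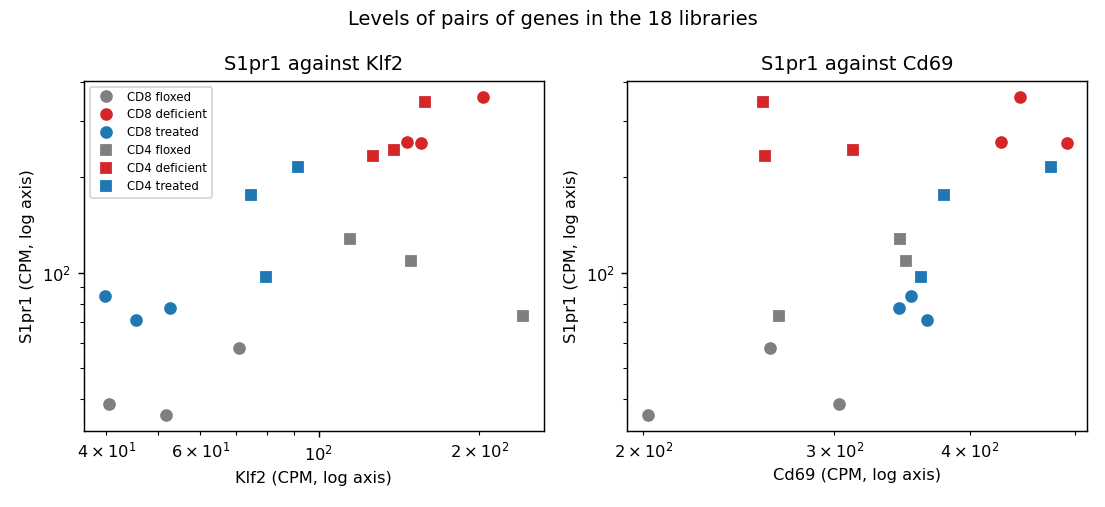
Levels in each of the 18 libraries (CPM, log axes): S1pr1 against Klf2 and S1pr1 against Cd69, coloured by group, circles for CD8 and squares for CD4. The deficient CD8 libraries lie above the other CD8 libraries in all 3 genes, while the deficient CD4 libraries are high in S1pr1 at Klf2 and Cd69 levels that overlap those of floxed CD4 libraries.

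The transcription factors known to act on egress and homing genes form a list of 18, all tested. With deletion in CD8 cells 4 were called higher and 5 lower (median -0.04). Those with the smallest adjusted p were Prdm1, the gene of the effector cell repressor BLIMP1 (-2.05 ± 0.28), Klf2, Klf3 (2.15 ± 0.33) and Foxo3 (0.66 ± 0.15). With antibodies in CD8 cells 4 were called higher and 6 lower (median -0.21), led by Klf2, Prdm1 (1.94 ± 0.28), Foxp1 (-1.15 ± 0.20) and Klf3 (-1.74 ± 0.33). Foxo1, which drives Klf2, Ccr7 and Il7r, was not called in CD8 cells, at -0.32 ± 0.57 with deletion and -0.64 ± 0.59 with antibodies. Gfi1, a repressor known to lower Il7r, was at -0.43 ± 0.20 with deletion (adjusted p = 0.143) and rose with antibodies by 0.83 ± 0.20 (adjusted p = 0.00765), by edgeR. In CD4 cells deletion gave 1 call higher (Foxo3, 0.54 ± 0.15) and 1 lower (Zeb2, -1.68 ± 0.25), and antibodies gave none.

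Of 14 genes of sphingosine-1-phosphate handling and of receptor signalling, 10 were tested. In CD8 cells 1 rose with deletion, Sphk1, a kinase that makes the lipid, from 0.0802 to 1.52 CPM, both at or near the floor. Gnai2, the G protein subunit through which S1PR1, CCR7 and GPR183 signal, fell by 0.52 on the log2 scale (SE 0.09, adjusted p = 6.3e-04, edgeR) and rose with antibodies by 0.51 ± 0.09 (adjusted p = 0.00107, edgeR). S1pr2, a receptor that holds cells in place, was at 17.0 CPM in floxed and 18.9 in deficient CD8 cells and was not called there. In CD4 cells S1pr2 fell from 62.8 to 40.0 CPM with deletion (-0.65 ± 0.17, adjusted p = 0.0146, edgeR), where 0 of the 10 rose and 3 fell.

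Of the 14 genes of lymph node entry 12 were tested. In CD8 cells 4 rose and 3 fell with deletion (median 0.03). Among these were Itgb7, the beta7 integrin chain (1.15 ± 0.17, higher), Fut7, a fucosyltransferase (-1.89 ± 0.27, lower), and Itgb2, the beta2 integrin chain (-0.77 ± 0.14, lower). With antibodies 5 rose and 3 fell, among them Itgb2 (0.94 ± 0.14), Fut7 (1.54 ± 0.27) and the chemokine receptor gene Cxcr4 (-1.002 ± 0.218). In CD4 cells 1 rose and 1 fell with deletion, the latter Itgb2 (-0.68 ± 0.14), and antibodies gave no call among the 12. None of the 4 genes of enzymes that make or break down oxysterols was called in CD8 cells, and in CD4 cells Cyp27a1 fell with deletion (-1.64 ± 0.47), a gene that macrophages also express.

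IL-7 signalling was represented by 13 genes, of which 11 were tested. In CD8 cells 3 rose and 3 fell with deletion (median 0.11). Among them the survival genes Bcl2 (1.36 ± 0.26) and Mcl1 (0.58 ± 0.12) and the signalling inhibitor Socs1 (1.01 ± 0.15) rose, and Crlf2, the receptor of a related cytokine, fell (-0.71 ± 0.13). With antibodies 3 rose and 2 fell, with Cish, another inhibitor of cytokine signalling (1.75 ± 0.44), Crlf2 (0.68 ± 0.13) and Jak3 (0.72 ± 0.19) higher and Socs1 lower (-0.51 ± 0.15). Il2rg, the partner chain of Il7r, was not called in CD8 cells (-0.09 ± 0.14 with deletion). In CD4 cells Stat5b rose (0.60 ± 0.16) and Mcl1 fell (-0.50 ± 0.12) with deletion.

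Genes known to be low in tissue-resident T cells, the group to which S1pr1 and Ccr7 also belong, form a list of 16, all tested. In CD8 cells 11 rose and 0 fell with deletion (median 1.17), and 0 rose and 10 fell with antibodies (median -1.16). Over all genes tested 9.65% rose with deletion and 5.53% fell with antibodies, with medians of -0.01 and -0.03. Beside Klf2 these held Slamf6, a surface receptor of less differentiated T cells (1.12 ± 0.14 with deletion, -1.28 ± 0.14 with antibodies), Rasgrp2 (1.35 ± 0.21 with deletion) and Tlr1 (-1.39 ± 0.20 with antibodies). In CD4 cells 3 rose and 2 fell with deletion (median 0.20) and none was called with antibodies.

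Of 20 genes known to be high in resident T cells, all tested, 1 rose and 10 fell in CD8 cells with deletion (median -0.86), and 8 rose and 0 fell with antibodies (median 0.75). Cxcr6, a chemokine receptor of tissue T cells, fell by 1.67 on the log2 scale (SE 0.18, adjusted p = 6.21e-06) and rose with antibodies by 2.19 ± 0.19 (adjusted p = 7.04e-07), by edgeR. Rgs1, an inhibitor of chemokine receptor signalling, fell by 1.03 (SE 0.16) and rose by 1.67 ± 0.16. Cd244a (-1.58 ± 0.21 with deletion, 2.13 ± 0.21 with antibodies) went the same way. So did Ctla4, the gene of an antibody target (-1.30 ± 0.18 with deletion, 1.67 ± 0.18 with antibodies). Itgae, the CD103 integrin chain that marks many resident cells, was not called, with CD8 means of 8.24 CPM (floxed), 13.7 CPM (deficient) and 14.8 CPM (treated). Cd69, the usual marker of resident cells, rose with deletion while this list fell. In CD4 cells 2 rose and 4 fell with deletion (median -0.06), and with antibodies Cxcr6 alone was called (1.17 ± 0.18, adjusted p = 0.0104, edgeR).

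**Figure D4:**
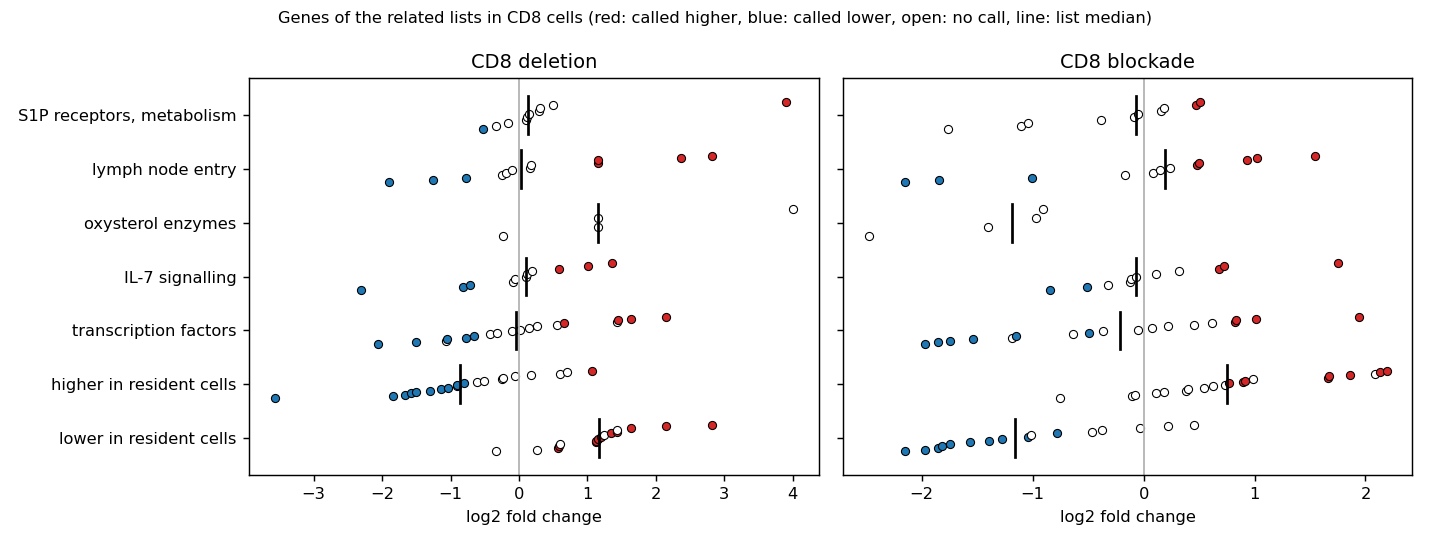
Fitted log2 fold changes (x axis) of the tested genes of 7 related lists in CD8 cells, with deletion (left) and with antibodies (right). Red and blue points are called higher and lower, open points are not called, and the black line is the median of the list, which for the genes low in resident cells is 1.17 on the left and -1.16 on the right.

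Markers of other cells moved with the same groups. The 12 melanoma genes summed to 163 to 205 CPM in floxed, 1412 to 3217 in deficient and 370 to 1754 in treated CD8 libraries, and 12 of 12 were called higher with deletion in CD8 cells. The 15 macrophage and monocyte genes summed to 606 to 1953 CPM in floxed, 1436 to 2828 in deficient and 462 to 714 in treated CD8 libraries. In CD4 cells the macrophage sum went the other way, at 11710 to 25110 CPM in floxed and 2997 to 4475 in deficient libraries. None of the genes of these lists was at 0 in any group. With the melanoma and macrophage levels as covariates, the same 5 of the 7 genes were called higher with deletion in CD8 cells, where calls over all genes dropped to 120. In both cell types the melanoma sums of floxed and deficient libraries do not overlap, so these fits cannot fully separate deletion from marker level. S1pr1 then rose by 3.05 ± 0.34 (adjusted p = 1.18e-04), and Gpr183 was next to the threshold (adjusted p = 0.0499). In CD4 cells 0 of the 7 was then called with deletion, where 2 genes were called in all, and the S1pr1 estimate turned to -0.62 ± 0.47 (adjusted p = 0.856, edgeR).

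S1pr1 is also abundant in endothelial cells. The 8 endothelial markers summed to 29.2 to 38.8 CPM in floxed, 69.2 to 93.7 in deficient and 33.1 to 39.5 in treated CD8 libraries. Most of it was Pecam1 (77.3 ± 10.7 CPM in deficient CD8 cells, SD, n = 3), which T cells also express. Cdh5, Tek and Emcn were at 0 in all 3 deficient CD8 libraries. Of the 4 endothelial markers tested, 2 were called higher with deletion in CD8 cells (9.65% of all genes) and 1 lower with antibodies (5.53%). Ccr7 is also a gene of mature dendritic cells, whose 8 markers (Ccl5 and Tmem123 among them, which T cells also make) summed to 463 to 553 CPM in floxed, 469 to 485 in deficient and 588 to 611 in treated CD8 libraries. The 7 B cell markers, a cell type that makes Ccr7 and Gpr183, summed to at most 24.3 CPM in any library. In CD8 libraries the sum was 1.47 to 3.03 CPM in floxed, 7.28 to 11.2 in deficient and 5.685 to 7.24 in treated ones. Of the 2 B cell markers tested, 1 was called higher with deletion in CD8 cells, and none was called with antibodies. The 9 natural killer cell markers, of interest for S1pr5, summed to 229 to 309 CPM in floxed, 274 to 393 in deficient and 396 to 432 in treated CD8 libraries. With the endothelial and mature dendritic cell levels as covariates, the same 5 of the 7 were called higher with deletion in CD8 cells, and with antibodies 1 of the 7 fell, S1pr1 (-1.41 ± 0.32, adjusted p = 0.0105, edgeR). The antibody calls of Ccr7 (-0.69 ± 0.30, adjusted p = 0.161), Il7r (-0.81 ± 0.38, adjusted p = 0.221) and Gpr183 (-0.50 ± 0.19, adjusted p = 0.0959) were lost there, by edgeR. The endothelial sums of deficient CD8 libraries do not overlap those of floxed or treated ones, so these fits cannot fully separate group from marker level. Of the other lists, the 10 dendritic cell genes summed to 233 to 261 CPM in floxed, 526 to 1018 in deficient and 200 to 339 in treated CD8 libraries. In CD8 cells 4 of the 10 were called higher with deletion, and 5 lower and 1 higher with antibodies. In CD4 libraries they summed to 4815 to 11200 CPM in floxed, 2153 to 3230 in deficient and 1374 to 2222 in treated ones. The part of these cells in the results was not tested apart from the covariates given.

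Naive T cells carry S1pr1, Ccr7 and Il7r. The 7 naive T cell markers summed to 284 to 748 CPM in floxed, 1363 to 1779 in deficient and 391 to 502 in treated CD8 libraries, and none was at 0. With deletion 4 of the 7 were called higher in CD8 cells and 3 in CD4 cells, and with antibodies 6 were called lower in CD8 cells. In CD4 cells the sums were 242 to 449 CPM in floxed, 569 to 1135 in deficient and 412 to 446 in treated libraries. The library highest in Ccr7 in each deficient group, replicate 1, was also the highest in this sum. These are bulk samples, in which more cells of a type and more transcript in each cell cannot be told apart.

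**Figure D5:**
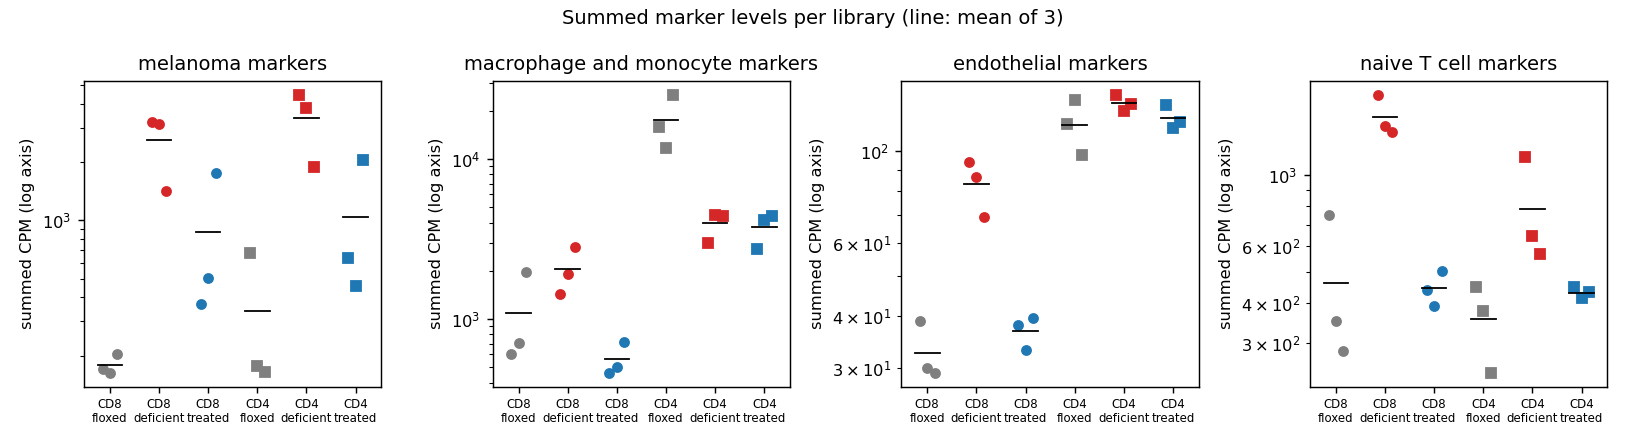
Summed level of 4 marker lists in each library (CPM, log axis), with the mean of each group as a line. Melanoma markers are higher in deficient than in floxed cells of both types, macrophage markers are highest in floxed CD4 libraries, and naive T cell markers are highest in deficient CD8 libraries.

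Across the 18 libraries the genes most like S1pr1 by Pearson's r of log2 CPM were Cbx7 (0.96), Ripor2 (0.95) and Tnfrsf26 (0.95). For Il7r they were Cxcr4 (0.94), Pnrc1 (0.93) and Socs3 (0.91), and for Ccr7 Scml4 (0.93), F2rl1 (0.91) and Pik3ip1 (0.90). For Gpr183 they were Il16 (0.93), Tbc1d10a (0.92) and Tecpr1 (0.91), and for S1pr4 Abcb1a (0.92), Jakmip1 (0.92) and Tecpr1 (0.92). Cd69 had no gene as close, with Ccdc157 (0.81), Stim2 (0.81) and Trim12a (0.78), nor had S1pr5, with Fbxw2 (0.80), Casz1 (0.80) and H2-Q6 (0.79). These values are descriptions: the libraries share group, cell type and cell makeup, and the highest of all genes tested are high by selection.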

How the data were processed

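RNA counts of 18 libraries (6 groups of 3) were used as the authors deposited them. Per the file headers, the deposited counts are reads per gene from featureCounts 1.5.1 with strand option 2 and the Ensembl 87 annotation. Per the submitters' processing notes, STAR, featureCounts and DESeq2 were used on build GRCm38. Symbols came from GENCODE M21, which matched 49326 of 49671 IDs. From the counts, CPM and log2 fold changes were computed by robust quasi-likelihood fits (edgeR 4.0.16, R 4.3.3) after filterByExpr and TMM scaling, with 12 residual degrees of freedom and an adjusted p threshold of 0.05. Checks were run on simulated data. RPKM is CPM per kilobase of exon. Alternatives included DESeq2 1.42.0, other scalings and filters, a replicate block, marker covariates and leaving out libraries. Same-numbered libraries deviated together (every r over 0.1) in 1 of 15 pairs of groups, treated CD8 and treated CD4 (0.103 to 0.289); the labels do not say what the numbers share. P-values measure only the spread between pooled libraries. The members and lists were chosen with earlier results of these data known. Named genes are the 7 members, up to 4 genes of each list with the smallest adjusted p per deletion and blockade comparison, Klf2, Foxo1, Gfi1, S1pr2, Itgae and Il2rg, and the 3 genes most like each member; 1 further gene of the rule is not reported here. Beside the lists in the report, CD4 lineage, dendritic cell, neutrophil, innate lymphoid cell, fibroblast and regulatory T cell markers were summed.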

Additional observations from a re-analysis of the deposited data

Results flagged for a closer look

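Both cell types went through the same comparisons, and for 3 of the 7 genes the effect of miR-155 deletion differed between CD8 and CD4 cells by edgeR's test of the difference. The differences on the log2 scale were 1.321 for S1pr1 (adjusted p = 0.0358), 1.046 for Cd69 (adjusted p = 0.00205) and 1.448 for Il7r (adjusted p = 0.0435), each larger in CD8 cells, where all 3 deficient libraries lay above all 3 floxed libraries. For Cd69 the floxed and deficient CD4 libraries overlapped, and for Il7r too. The S1pr1 call was lost in 9 and the Il7r call in 12 of the 18 fits without 1 library. With endothelial and mature dendritic cell covariates the S1pr1 (0.35), Cd69 (0.88) and Il7r (0.48) differences were not called. That of Cd69 was not called with melanoma and macrophage covariates either. The effect of the antibodies on Cd69 also differed, by -0.916 (adjusted p = 0.0402): all 3 treated CD8 libraries lay below, and all 3 treated CD4 libraries above, their untreated counterparts. This antibody call was lost in 9 of the 18 fits without 1 library. With 3 libraries in each group no library was tested as an outlier.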

How the results depend on the processing

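Of the 26 calls of the 7 genes over all comparisons, 26 were kept with DESeq2, with other size factors, with the replicate block and with a stricter filter, 25 with no filter, 24 with scaling to general T cell genes, 21 without the 3 libraries of high ribosomal-like share, 16 with melanoma and macrophage covariates and 12 with endothelial and mature dendritic cell covariates. Below, a comparison of antibodies sets treated against untreated deficient cells, and CD8 minus CD4 is the difference of effects. With DESeq2, the number of genes called became 177 for CD4 antibodies, 1385 for CD8 treated against floxed and 355 for CD8 minus CD4 antibodies. Of the 7 genes, 2 were called for CD4 antibodies, CD8 treated against floxed and CD8 minus CD4 antibodies there. With endothelial and mature dendritic cell covariates, also chosen after seeing the data, the number of genes called became 865 for CD4 antibodies, 1426 for CD8 against CD4 deficient, 2037 for CD8 against CD4 floxed, 728 for CD8 against CD4 treated and 225 for CD8 minus CD4 antibodies. Of the 7, 1 was called for CD8 against CD4 deficient, CD8 against CD4 floxed, CD8 against CD4 treated and CD8 antibodies, 2 were called for CD8 treated against floxed and 0 were called for CD8 minus CD4 antibodies and CD8 minus CD4 deletion there. The log2 estimates whose sign turned were Ccr7 at 0.96 (CD4 treated against floxed) and -0.14 (CD8 minus CD4 deletion), Cd69 at 0.021 (CD8 against CD4 treated), Il7r at 0.40 (CD4 treated against floxed), 1.01 (CD8 against CD4 deficient), 0.52 (CD8 against CD4 floxed) and 0.75 (CD8 against CD4 treated), S1pr1 at 0.95 (CD8 against CD4 floxed) and 0.39 (CD8 against CD4 treated), S1pr4 at 0.13 (CD8 against CD4 deficient), 1.16 (CD8 against CD4 floxed), 0.19 (CD8 against CD4 treated), 0.25 (CD8 antibodies) and 0.063 (CD8 minus CD4 antibodies) and S1pr5 at 2.17 (CD4 deletion), 3.05 (CD4 treated against floxed), 2.72 (CD8 against CD4 deficient) and 6.93 (CD8 against CD4 floxed). With each cell type fitted alone, the number of genes called became 439 for CD8 treated against floxed. Among the 7 genes, 1 was called for CD4 treated against floxed and CD8 treated against floxed there. With melanoma and macrophage covariates, the number of genes called became 7 for CD4 antibodies, 2 for CD4 deletion, 0 for CD4 treated against floxed, 1324 for CD8 against CD4 deficient, 67 for CD8 against CD4 floxed, 290 for CD8 against CD4 treated, 132 for CD8 antibodies, 120 for CD8 deletion, 145 for CD8 treated against floxed, 42 for CD8 minus CD4 antibodies and 15 for CD8 minus CD4 deletion. Among the 7, 0 were called for CD4 deletion and CD4 treated against floxed and 2 were called for CD8 minus CD4 antibodies there. The log2 estimates whose sign turned were Ccr7 at -0.77 (CD4 deletion), -2.69 (CD8 against CD4 floxed), -1.12 (CD8 against CD4 treated) and -0.11 (CD8 treated against floxed), Cd69 at -0.33 (CD4 treated against floxed), Il7r at -1.81 (CD4 deletion) and -0.12 (CD8 treated against floxed), S1pr1 at -0.62 (CD4 deletion), -1.07 (CD4 treated against floxed) and -0.48 (CD8 against CD4 deficient), S1pr4 at -1.002 (CD4 deletion), -0.55 (CD4 treated against floxed), -0.041 (CD8 treated against floxed) and 1.67 (CD8 minus CD4 deletion) and S1pr5 at -0.48 (CD4 antibodies), -5.10 (CD8 against CD4 treated), -1.96 (CD8 antibodies), 2.06 (CD8 deletion), -1.47 (CD8 minus CD4 antibodies) and 6.35 (CD8 minus CD4 deletion). With no filter on low counts, the number of genes called became 541 for CD4 antibodies, 1574 for CD8 treated against floxed and 665 for CD8 minus CD4 antibodies. Of the members, 4 were called for CD4 antibodies and CD4 treated against floxed, 5 were called for CD8 against CD4 treated and 2 were called for CD8 treated against floxed and CD8 minus CD4 antibodies there. The log2 estimates whose sign turned were Ccr7 at 0.002 (CD4 treated against floxed). With scaling to general T cell genes, the number of genes called became 37 for CD4 antibodies, 4962 for CD4 treated against floxed, 3715 for CD8 antibodies, 322 for CD8 treated against floxed, 44 for CD8 minus CD4 antibodies and 2616 for CD8 minus CD4 deletion. Of the 7 genes, 3 were called for CD4 antibodies, 1 was called for CD4 treated against floxed and 5 were called for CD8 against CD4 floxed and CD8 against CD4 treated there. The log2 estimates whose sign turned were Cd69 at -0.20 (CD4 treated against floxed), Gpr183 at -0.19 (CD4 antibodies), Il7r at 0.011 (CD8 against CD4 deficient), S1pr4 at -0.20 (CD4 antibodies) and 0.31 (CD8 minus CD4 deletion) and S1pr5 at -0.24 (CD4 antibodies). With the replicate number as a block, the number of genes called became 65 for CD4 antibodies and 179 for CD8 minus CD4 antibodies. Among the 7, 2 were called for CD4 antibodies, 4 were called for CD8 against CD4 deficient, 5 were called for CD8 against CD4 treated and 1 was called for CD8 treated against floxed there. The log2 estimates whose sign turned were S1pr5 at 0.18 (CD4 deletion), 0.39 (CD4 treated against floxed) and 0.32 (CD8 against CD4 floxed). Of 45 same-numbered pairs of libraries 9 had deviations correlated over 0.1 (-0.18 to 0.29). These were all 3 pairs of treated CD8 and CD4 libraries, 2 of 3 of deficient CD8 and CD4 libraries (0.093 to 0.164) and 4 scattered ones. Such correlations cannot tell whether same-numbered libraries come from the same tumors, and the labels do not say. The block ended none of the member calls. Without the 3 libraries of high ribosomal-like share, an alternative chosen after seeing the data, the number of genes called became 4 for CD4 antibodies, 58 for CD8 treated against floxed and 50 for CD8 minus CD4 antibodies. Of the 7, 1 was called for CD4 treated against floxed and CD8 against CD4 deficient and 0 were called for CD8 minus CD4 antibodies there. The log2 estimates whose sign turned were S1pr5 at -0.007 (CD4 antibodies). Leaving out 1 library at a time gave 1641 to 2947 for CD8 deletion, 783 to 1961 for CD4 deletion, 919 to 2393 for CD8 antibodies, 0 to 106 for CD4 antibodies, 111 to 1503 for CD8 treated against floxed, 782 to 2033 for CD4 treated against floxed, 1212 to 1883 for CD8 minus CD4 deletion, 49 to 227 for CD8 minus CD4 antibodies, 4741 to 5712 for CD8 against CD4 floxed, 1331 to 2622 for CD8 against CD4 deficient and 1862 to 3260 for CD8 against CD4 treated genes called. Of the 7 genes it gave 5 to 6 for CD8 deletion, 2 to 3 for CD4 deletion, 3 to 4 for CD8 antibodies, 0 to 0 for CD4 antibodies, 0 to 1 for CD8 treated against floxed, 1 to 2 for CD4 treated against floxed, 1 to 3 for CD8 minus CD4 deletion, 0 to 1 for CD8 minus CD4 antibodies, 2 to 5 for CD8 against CD4 floxed, 1 to 3 for CD8 against CD4 deficient and 2 to 4 for CD8 against CD4 treated. Estimates that turned sign ranged from -1.03 to 1.72 for S1pr5 CD4 deletion, -0.20 to 0.019 for S1pr4 CD8 antibodies, -0.97 to 0.98 for S1pr5 CD4 antibodies, -1.19 to 1.87 for S1pr5 CD4 treated against floxed, -0.16 to 0.14 for Ccr7 CD4 treated against floxed, -0.52 to 0.10 for S1pr4 CD8 minus CD4 deletion, -0.060 to 0.21 for Gpr183 CD8 minus CD4 deletion, -0.76 to 0.015 for Ccr7 CD8 minus CD4 antibodies, -0.70 to 1.83 for S1pr5 CD8 against CD4 floxed and -0.076 to 0.30 for S1pr1 CD8 against CD4 deficient, none of them called in all libraries. The cause of these changes was not tested.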

Other observations

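Neutrophil markers (6 genes) summed to 1.25 to 57.2 CPM, innate lymphoid cell markers (7 genes) to 93.0 to 557 CPM, fibroblast markers (6 genes) to 0.294 to 166 CPM and regulatory T cell markers (6 genes) to 551 to 927 CPM in CD8 and 1584 to 3196 CPM in CD4 libraries. The genes of the CD4 lineage summed to 29.8 to 72.2 CPM in CD8 and 385 to 1341 CPM in CD4 libraries.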
